A study of Mus musculus with 6 samples.

Results

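Interferon response and nucleic acid sensing were described here through 48 named genes of the 34718 in the count table of a mouse hepatoma line. The genes were listed by role, with earlier results of these data known. The roles were receptors, transcription factors, sensors and their adaptors, enzymes that act on double-stranded RNA, and interferon-induced effectors. The comparison set 3 Hepa1-6 libraries with knockdown of Zfp207 by short hairpin (titled shZfp207) against 3 Hepa1-6 control libraries (titled shNC). Hepa1-6 is a hepatoma line grown in culture, and the labels name no interferon, virus or other agent given to either group. The labels give neither the number of hairpins nor whether replicates came from separate cultures, so hairpin effects and loss of Zfp207 cannot be told apart, and p-values measure the spread between these libraries, which may be technical.

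Interferons are secreted proteins that make cells resist viruses. Interferon alpha and beta bind a receptor made of IFNAR1 and IFNAR2, after which a complex that holds STAT2 and IRF9 binds the interferon-stimulated response element (ISRE) at its target genes. Interferon gamma binds IFNGR1 and IFNGR2 and acts on the gamma-activated sequence (GAS). Upstream, RIG-I (Ddx58) and MDA5 (Ifih1) detect viral RNA and signal through MAVS, and STING (Tmem173) relays the detection of DNA by cGAS, both toward the kinase TBK1 and the factor IRF3.

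The promoters of Cmpk2 and Irf1 (higher in shZfp207 cells) and of Stat2 and Bst2 (lower) are shown because these members moved in opposite directions. That of Oas1a, a higher member outside this contrast, is shown as well. Each sequence is the 250 bases before the RefSeq start in GRCm38.p6 (for Irf1, the upstream one of 2 starts), read 5′ to 3′ on the gene's strand. Capitals mark matches to the ISRE core, which is GAAA, any 2 bases and GAAA (or TTTC, any 2 bases and TTTC, the same core on the other strand), and to the GAS core TTCNNNGAA, which reads the same on both strands. Overlapping matches were all counted and run together in capitals. Cmpk2 lies on the plus strand (chr12:26468965-26469214), Irf1 on the plus strand (chr11:53769764-53770013), Oas1a on the minus strand (chr5:120907526-120907775), Stat2 on the plus strand (chr10:128270248-128270497) and Bst2 on the minus strand (chr8:71537473-71537722).
Cmpk2: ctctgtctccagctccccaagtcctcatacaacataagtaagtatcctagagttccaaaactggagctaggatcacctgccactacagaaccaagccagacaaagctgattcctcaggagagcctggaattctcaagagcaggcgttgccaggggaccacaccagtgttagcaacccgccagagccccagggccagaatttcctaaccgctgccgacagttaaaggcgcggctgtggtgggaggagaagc
Irf1: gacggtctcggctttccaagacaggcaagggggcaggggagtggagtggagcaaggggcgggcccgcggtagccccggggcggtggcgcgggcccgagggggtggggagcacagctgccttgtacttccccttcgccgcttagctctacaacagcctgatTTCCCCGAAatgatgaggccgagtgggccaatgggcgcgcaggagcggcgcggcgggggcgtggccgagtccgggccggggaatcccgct
Oas1a: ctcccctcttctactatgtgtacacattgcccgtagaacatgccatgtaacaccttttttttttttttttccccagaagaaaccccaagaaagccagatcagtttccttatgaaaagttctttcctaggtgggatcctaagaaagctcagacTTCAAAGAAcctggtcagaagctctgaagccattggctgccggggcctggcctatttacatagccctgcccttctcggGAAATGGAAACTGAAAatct
Stat2: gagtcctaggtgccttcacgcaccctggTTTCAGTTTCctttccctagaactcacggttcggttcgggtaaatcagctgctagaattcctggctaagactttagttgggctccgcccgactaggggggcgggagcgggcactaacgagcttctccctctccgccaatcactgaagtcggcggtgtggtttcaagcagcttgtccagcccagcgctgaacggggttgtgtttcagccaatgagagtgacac
Bst2: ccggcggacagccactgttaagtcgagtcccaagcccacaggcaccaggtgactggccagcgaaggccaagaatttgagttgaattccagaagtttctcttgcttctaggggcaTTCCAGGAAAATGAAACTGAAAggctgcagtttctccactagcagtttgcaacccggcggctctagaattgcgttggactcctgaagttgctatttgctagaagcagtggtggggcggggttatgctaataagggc
The windows of Bst2 and Oas1a held 2 overlapping ISRE matches and 1 GAS match each, that of Stat2 held 1 ISRE match, that of Irf1 held 1 GAS match, and that of Cmpk2 held neither. The table held 48 promoters for 39 of the members. An ISRE match was present in 27.1% of those promoters, against 2.98% of all 32851 in the table, and a GAS match in 22.9%, against 7.02% of all. By gene, an ISRE match was found for 1 of the 4 higher members with a promoter in the table (Oas1a), 3 of 8 lower members (Bst2, Ifitm2 and Stat2), 6 of 23 members tested and not past the threshold, and 3 of 4 members with too few counts to test. A GAS match was found for 2 of 4, 4 of 8, 5 of 23 and 0 of 4 in the same order. Over the 39 members, 33.3% had an ISRE match and 28.2% a GAS match. These are matches of letters and not measured binding.

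Library totals ran from 14629661 to 15236957 counts in shZfp207 libraries and from 11933736 to 16248346 in shNC libraries. Zfp207 had 48, 48.1 and 46.8 CPM (counts per 1000000 counts of the library) in shZfp207 replicates 1 to 3, against 141.4, 198 and 216.8 CPM in shNC replicates 1 to 3. Its log2 fold change was -1.95 (SE 0.17, adjusted p = 0.00236 in edgeR), and an exact two-sided permutation test of the CPM values gave p = 0.1, the smallest that 3 against 3 can give. ShNC replicate 1 stood apart, with a Pearson r of 0.95 with the other shNC libraries over log2 CPM of genes, where those had 0.989 with each other. Mitochondrially encoded genes took 5.6% to 6% of counts in shZfp207 libraries, against 10.51%, 2.89% and 2.67% in shNC replicates 1 to 3. The nuclear RNA Malat1 had 104.3, 123.5 and 129.5 CPM in shZfp207 libraries, against 330.8, 30.8 and 30 CPM in shNC libraries, and Neat1 21.2, 17.8 and 19.1 CPM against 160.6, 6.17 and 9.48 CPM. For both, the shZfp207 libraries lay below shNC replicate 1 and above the other controls. Without shNC replicate 1 the log2 fold changes of Malat1 and Neat1 were 1.98 and 1.31 (adjusted p = 2.48e-05 and 0.00109 in edgeR). ShNC replicate 1 was the lowest of all 6 at 13 of the 40 members tested (32.5%, against 28.8% of all genes tested) and the highest at 7 (17.5%, against 33.2% of all genes tested).

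Marker genes were read to see what else the cultures could hold. Of the hepatoma markers, Alb averaged 906.8 FPKM (fragments per kilobase of exon and per 1000000 fragments) in shZfp207 and 374.1 in shNC libraries, and Afp 438.9 and 203.3 FPKM, while Apoa1 averaged 2.05 and 1.15 FPKM and Ttr had 5 counts or fewer in every library. Of the 8 hepatocyte and hepatoma markers tested, 3 were higher in shZfp207 cells (Afp, Alb and Apoa1) and 3 lower (Krt8, Krt18 and Trf). That was 75% called, against 20.6% of all genes tested. Of the 6 fits with 1 library left out, Afp was called in 6, Alb in 2 and Apoa1 in 1. Their summed level was 7909 to 8079 CPM in shZfp207 libraries and 6406 to 7646 CPM in shNC libraries. Of 13 gene records for 12 leukocyte markers, Cd3e, Cd8a, Itgax, Nkg7 and Ncr1 were at 0 in all 6 libraries. The list summed to 5.11 to 6.37 CPM in shZfp207 and 2.54 to 3.88 CPM in shNC libraries. Without Csf1r, its only called record of 3 tested (log2 fold change 2.68, adjusted p = 0.0117 in edgeR), the sums were 1.92 to 2.95 CPM and 2.12 to 3.02 CPM. Endothelial and fibroblast markers without decorin (Dcn) summed to 19.2 to 21.2 CPM in shZfp207 and 26.7 to 29.5 CPM in shNC libraries. Dcn itself averaged 1299 FPKM in shZfp207 and 1046 FPKM in shNC libraries. Of the 4 endothelial and fibroblast markers tested, 1 was lower (Pdgfra) and 0 higher (25% called). The part of these markers, and of the mitochondrial share and nuclear RNAs, in the results below was not tested.

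The members differed widely in level in both groups, and Ifit1, Ifit3, Oas2 and Mx2, classical interferon-induced genes, were near or at 0. Averaged over the 6 libraries, 31 of the 48 members had at least 1 FPKM, 11 had at least 10 FPKM and 3 had at least 50 FPKM. The 3 most abundant were membrane restriction factors, which block virus entry or release, although Ifitm1 of the same role had 1 count in all 6 libraries together: Ifitm2 (247.6 FPKM in shZfp207 and 372.6 FPKM in shNC), Ifitm3 (197.2 and 232.3 FPKM) and Bst2 (51.9 and 97.6 FPKM). STING (Tmem173) followed at 51.3 FPKM in shZfp207 and 47.8 FPKM in shNC, then the receptor chain Ifngr1 at 49.8 and 37.8 FPKM. The kinase gene Tbk1 had 25.7 and 26.1 FPKM. The ubiquitin-like modifier Isg15, usually among the most strongly induced genes, averaged 1.5 FPKM in shZfp207 and 1.79 FPKM in shNC, and the viperin gene Rsad2 0.192 and 0.241 FPKM.

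**Figure D1:**
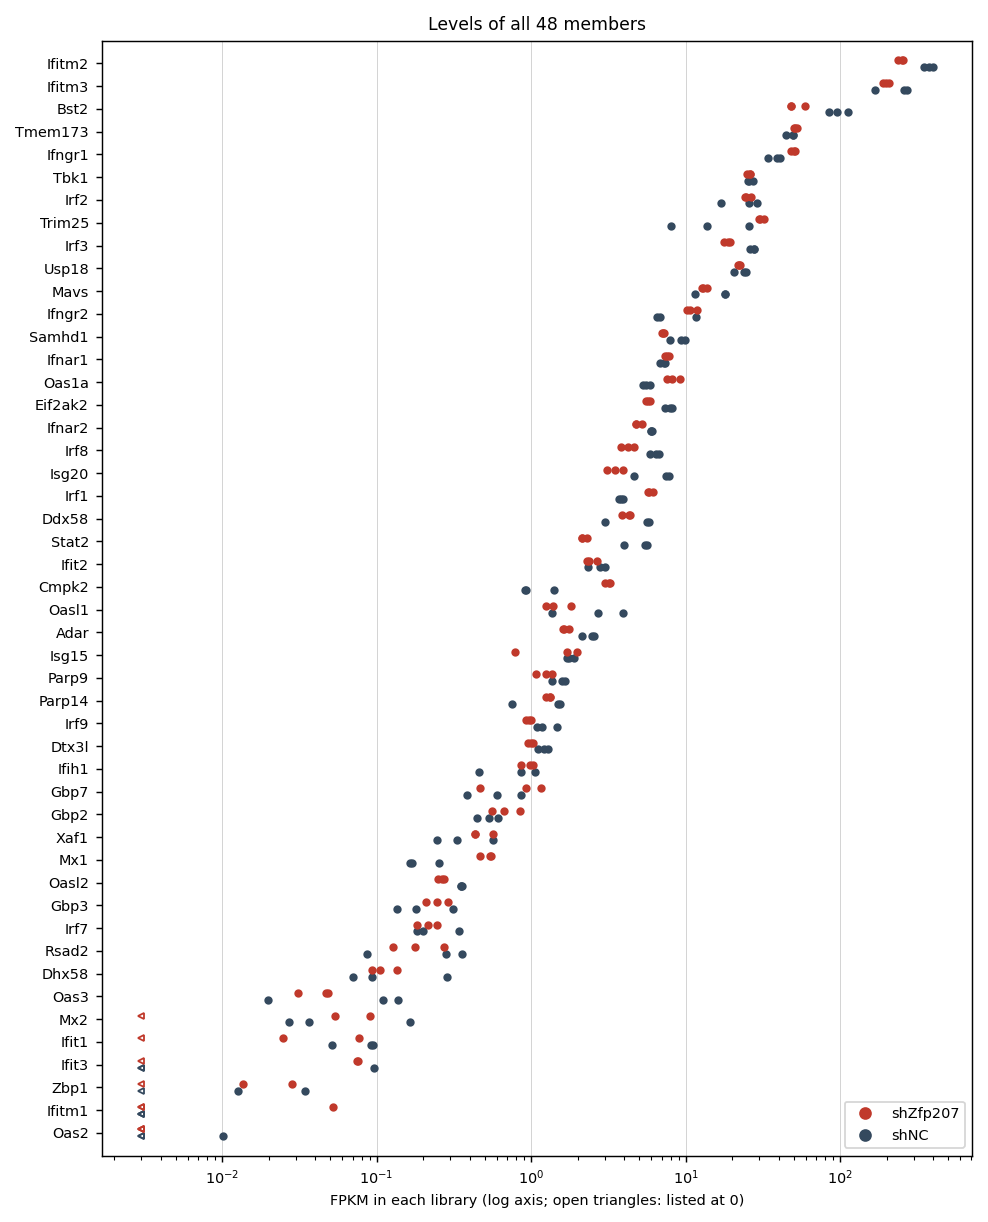
FPKM of all 48 members in each of the 3 shZfp207 (red) and 3 shNC (dark) libraries on a log axis, ordered by their mean over 6 libraries. Ifitm2 and Ifitm3 stand at the top, with means of 247.6 and 197.2 FPKM in shZfp207 and 372.6 and 232.3 FPKM in shNC libraries, and Ifit1, Ifit3, Zbp1, Ifitm1 and Oas2 stay below 0.1 FPKM in every library, with open triangles for libraries listed at 0.

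In 8 members there were too few counts to test. Ifit1 had 0 to 4 counts per library, Ifit3 0 to 2, Mx2 0 to 10, Oas2 0 to 1, Oas3 2 to 17, Ifitm1 0 to 1, the DNA and RNA sensor gene Zbp1 0 to 2, and Dhx58, a RIG-I relative, 5 to 15. A count of 0 allows up to 0.197 to 0.205 CPM in shZfp207 libraries and 0.185 to 0.251 CPM in shNC libraries, with counting error only. The interferons themselves were at the limit of detection: 16 of 20 interferon genes, all those for interferon alpha on the list and Ifnb1 among them, had 0 counts in all 6 libraries. The 20 together had 7 counts in shZfp207 libraries, of which Ifnk had 6 in replicate 1 and Ifnl3 had 1, and 3 counts in shNC libraries, all in replicate 1 (Ifne 2, Ifng 1).

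Of the 40 members tested, 5 were higher and 8 lower in shZfp207 cells (edgeR quasi-likelihood test, adjusted p below 0.05 over all 11975 genes tested). The higher members were Cmpk2, Mx1, Irf1, Oas1a and Ifngr1, and the lower ones Stat2, Isg20, Bst2, Ifitm2, Irf8, Irf3, Adar and Eif2ak2. Among all genes tested 20.6% passed, 9.92% higher and 10.7% lower, and among members 32.5%. The median log2 fold change was -0.18 over the members tested and -0.03 over all genes tested. Signs were divided, 16 members having a positive and 24 a negative log2 fold change. The groups did not overlap in CPM at 20 of 40 members (50%), close to the 44.9% of all genes tested. In bulk RNA, fewer cells that express a gene and less of its RNA per cell cannot be told apart.

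**Figure D2:**
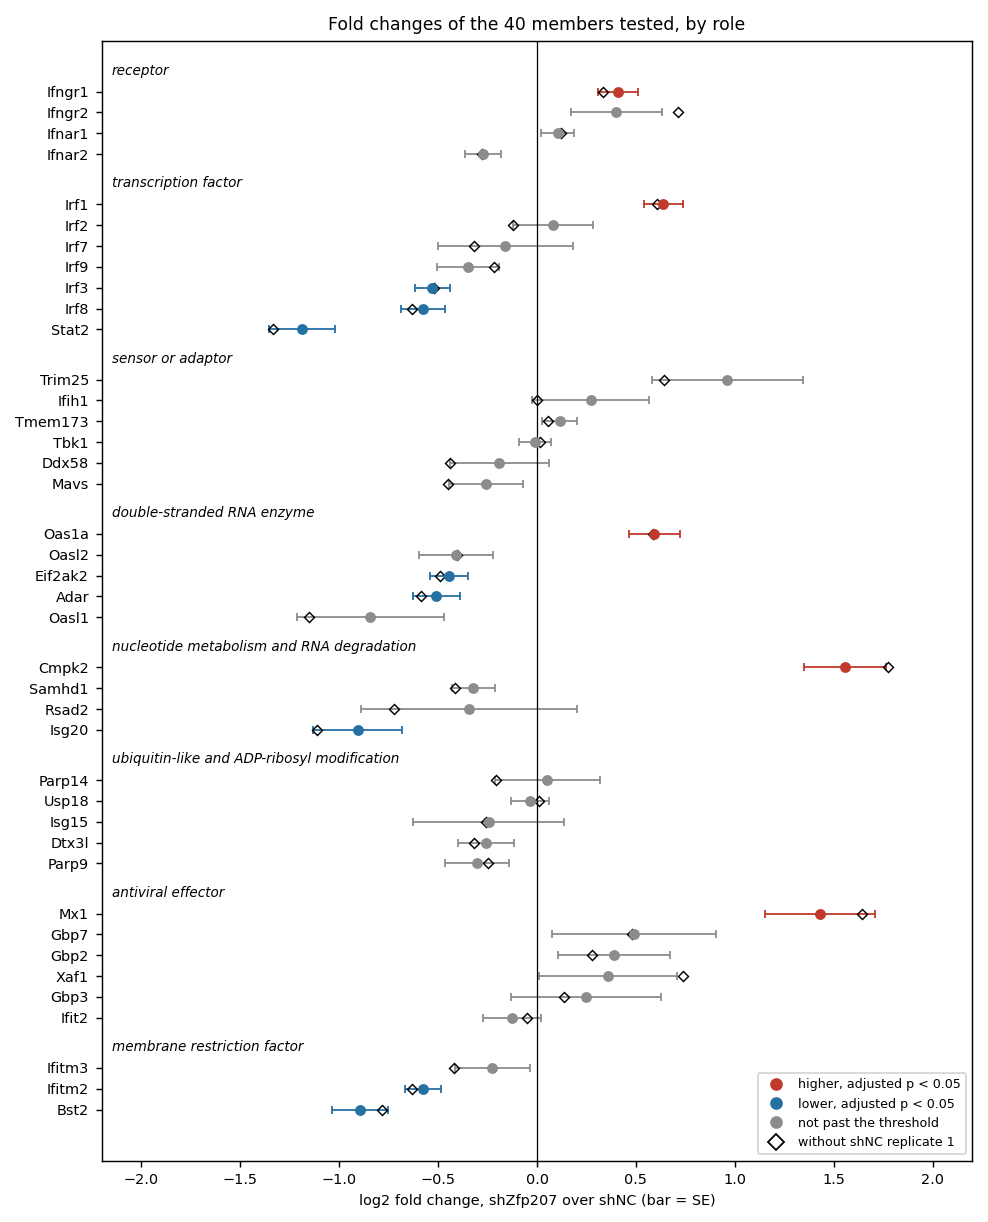
Log2 fold change of shZfp207 over shNC (x axis, bars are SE) for the 40 members tested, grouped by role, with open diamonds for the fit without shNC replicate 1. Cmpk2 and Mx1 lie farthest to the right at 1.55 and 1.43 and Stat2 farthest to the left at -1.19, and no role other than the membrane restriction factors has all its members on the left.

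Which members passed depended strongly on the libraries. Without shNC replicate 1, 7 members were higher and 15 lower of 41 tested, where 52.1% of all 12108 genes passed (26.1% higher and 26.1% lower). All 13 members named above kept their direction and call in that fit. Without shNC replicate 2, 2 were higher and 5 lower of 40, and without shNC replicate 3, 3 and 4. Without shZfp207 replicate 1, 2 and 2 of 41 passed, and without replicate 2 or 3, 1 and 1. The share of all genes called in those 5 fits was 12.5%, 10.4%, 5.93%, 4.91% and 4.37% in the order given. Cmpk2 and Stat2 were the only members called in each of the 6 fits.

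**Figure D3:**
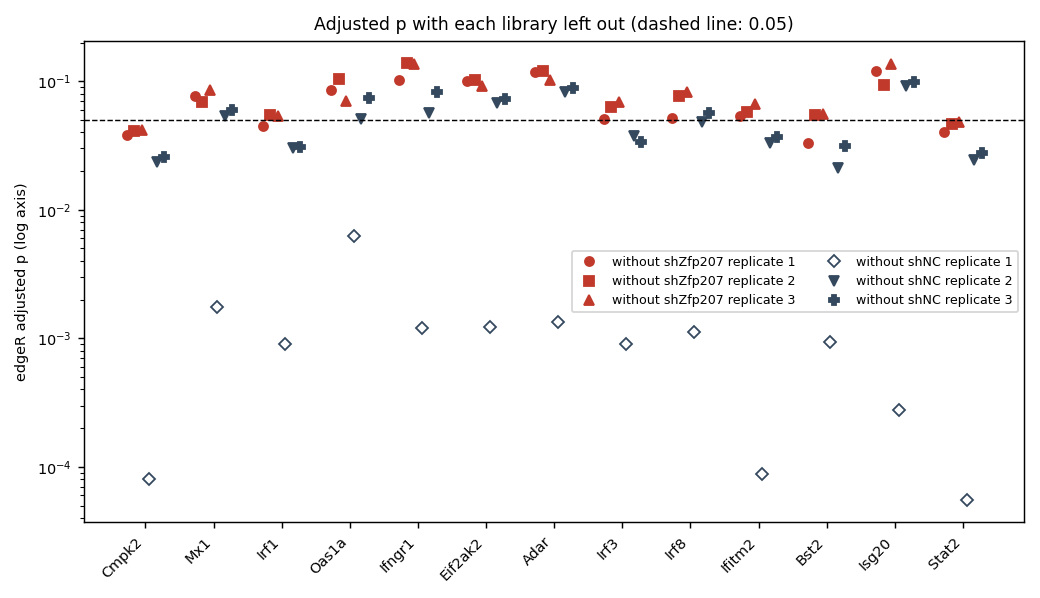
edgeR adjusted p (log axis) of the 13 called members with each of the 6 libraries left out in turn, against the threshold of 0.05 (dashed). All points of Cmpk2 and Stat2 lie below the line, and for every gene the open diamond, the fit without shNC replicate 1, lies lowest.

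Cmpk2 and Irf1 were set against Stat2 and Bst2, a contrast chosen with their directions known. Cmpk2 encodes a mitochondrial nucleotide kinase that interferon induces (ENSMUSG00000020638, chr12:26469204-26479835 in mm10). It had 10.3, 9.62 and 10.3 CPM in shZfp207 replicates 1 to 3, against 4.53, 2.95 and 2.95 CPM in shNC replicates 1 to 3. Every shZfp207 library lay above every control, and shNC replicate 1 was the highest control. The means were 10.1 ± 0.362 CPM in shZfp207 and 3.46 ± 0.878 CPM in shNC cells (SD, n = 3 each, scaled by TMM), a log2 fold change of 1.55 (SE 0.207, adjusted p = 0.00592 in edgeR). It was 1.77 (adjusted p = 8.05e-05) without shNC replicate 1, and with any other library left out the adjusted p was 0.0237 to 0.0421.

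Irf1 is a transcription factor that interferon gamma induces and that activates antiviral and antigen presentation genes (ENSMUSG00000018899, chr11:53770014-53778374). It had 33.1, 35.7 and 33.4 CPM in shZfp207 libraries, against 21.3, 22.1 and 22.8 CPM in shNC libraries. Both groups were tight and did not overlap. The log2 fold change was 0.64 (SE 0.0994, adjusted p = 0.00865 in edgeR), from means of 34.2 ± 1.53 CPM in shZfp207 and 22 ± 0.882 CPM in shNC cells (SD, n = 3 each). The call was lost without shZfp207 replicate 2 or 3, at adjusted p = 0.0549 and 0.0541. Up to 3.4% of its exonic sequence overlaps a predicted gene on the opposite strand.

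Stat2 encodes the STAT subunit particular to the alpha and beta interferon complex (ENSMUSG00000040033, chr10:128270576-128292849). It had 10.4, 9.55 and 9.64 CPM in shZfp207 libraries, against 17.9, 25.4 and 24.5 CPM in shNC libraries. ShNC replicate 1 was the lowest control and still above every shZfp207 library. Means were 9.9 ± 0.396 CPM in shZfp207 and 22.6 ± 4.22 CPM in shNC cells (SD, n = 3 each), and the log2 fold change was -1.19 (SE 0.166, adjusted p = 0.00658 in edgeR), so that 0.439 of the control level remained. With each library left out the log2 fold change stayed between -1.33 and -1.09 and the adjusted p at or below 0.0479.

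Bst2 encodes tetherin, which holds budding virus particles at the cell surface (ENSMUSG00000046718, chr8:71534264-71537437). It had 45.5, 37 and 36.8 CPM in shZfp207 libraries, against 86.5, 65.1 and 72.7 CPM in shNC libraries. Here shNC replicate 1 was the highest control, the opposite of its place for Stat2. The log2 fold change was -0.90 (SE 0.141, adjusted p = 0.00892 in edgeR), with means of 40 ± 4.79 CPM in shZfp207 and 74.4 ± 10.2 CPM in shNC cells (SD, n = 3 each). The call was lost without shZfp207 replicate 2 or 3, at adjusted p = 0.0549 and 0.0561.

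Per length, the pairs changed places in part. The FPKM of Cmpk2 was 1.39, 1.41 and 1.49 times that of Stat2 in shZfp207 replicates 1 to 3, against 0.354, 0.162 and 0.169 times in shNC replicates 1 to 3. By FPKM, Cmpk2 was thus the more abundant of the pair in every shZfp207 library and the less abundant in every shNC library. By CPM, which ignores length, Cmpk2 and Stat2 were close in shZfp207 libraries. Cmpk2 had 10.3, 9.62 and 10.3 CPM there, against 10.4, 9.55 and 9.64 CPM for Stat2. The FPKM of Irf1 was 0.0962, 0.128 and 0.12 times that of Bst2 in shZfp207 libraries, against 0.0326, 0.0449 and 0.0416 times in shNC libraries, and stayed below it throughout. These ratios follow from the choice of the genes and are a description.

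**Figure D4:**
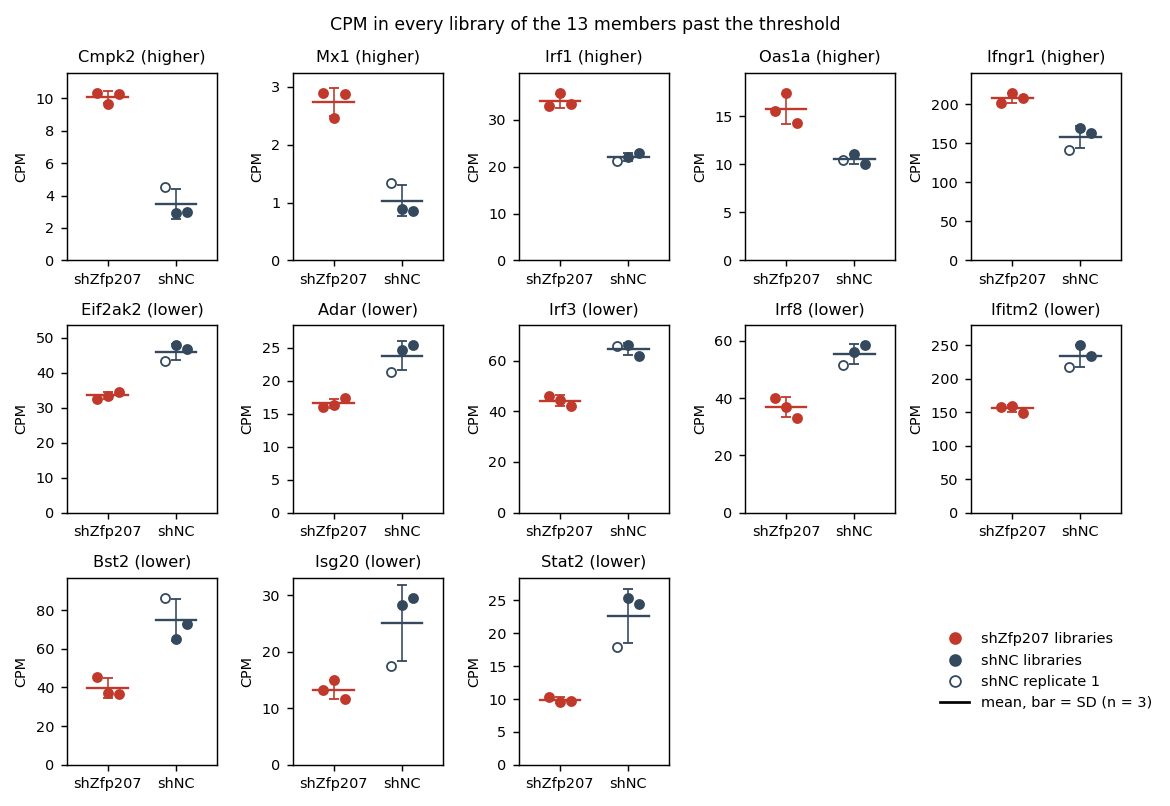
CPM in every library of the 13 members past the threshold, with shZfp207 on the left and shNC on the right of each panel, lines for means and bars for SD (n = 3 each), and an open circle for shNC replicate 1. The groups do not overlap in any panel, and shNC replicate 1 is the control nearest to the shZfp207 libraries for Cmpk2, Mx1, Stat2, Isg20, Irf8, Ifitm2, Eif2ak2 and Adar, the farthest from them for Bst2, Irf1 and Ifngr1, and between the other controls for Irf3 and Oas1a.

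Of the 4 receptor chains, all tested, 1 was called (25%, against 20.6% of all genes tested). This was Ifngr1, the ligand-binding chain for interferon gamma (chr10:19591949-19610229). It had 201.2, 214 and 208.1 CPM in shZfp207 libraries, against 141.9, 168.9 and 163 CPM in shNC libraries. All shZfp207 libraries lay above all controls, with a log2 fold change of 0.41 (SE 0.101, adjusted p = 0.0341 in edgeR). The call was kept without shNC replicate 1 (0.33, adjusted p = 0.00119), and with any other library left out the adjusted p was 0.0569 to 0.14. Its partner chain Ifngr2 had 37.3, 35.7 and 41.8 CPM in shZfp207 libraries, against 41.1, 23 and 23.9 CPM in shNC libraries, so that shNC replicate 1 lay among the shZfp207 values. Its log2 fold change was 0.40 (adjusted p = 0.26 in edgeR), or 0.71 (adjusted p = 0.000952) without that library. Ifnar1 and Ifnar2, the chains for interferon alpha and beta, had log2 fold changes of 0.10 and -0.27 and edgeR gave adjusted p of 0.421 and 0.0812. Ifnar2 was at 29.3 to 31.9 CPM in shZfp207 and 36.7 to 36.9 CPM in shNC libraries, and without shNC replicate 1 its adjusted p was 0.0191.

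Of the 7 transcription factors, Irf3 and Irf8 were lower besides Stat2, and Irf1 was higher (57.1% called, against 20.6% of all genes tested). Irf3, the factor that TBK1 activates after sensing (chr7:44997648-45002847), had 46.3, 44.5 and 42.1 CPM in shZfp207 libraries, against 65.9, 66.1 and 61.7 CPM in shNC libraries. It fell by 0.53 on the log2 scale (SE 0.0885, adjusted p = 0.0103 in edgeR) and lost the call without any 1 shZfp207 replicate (adjusted p 0.0507 to 0.0685). Up to 2.56% of its exonic sequence overlaps Bcl2l12 on the opposite strand. Irf8, best known as a regulator of myeloid cells (chr8:120736358-120756694), had 40.1, 37 and 33.2 CPM in shZfp207 libraries, against 51.5, 55.9 and 58.3 CPM in shNC libraries. It fell by 0.58 (SE 0.11, adjusted p = 0.0153 in edgeR), with the call lost without shNC replicate 3 or any 1 shZfp207 replicate (adjusted p 0.0515 to 0.082). Irf9, the partner of STAT2, had 8.53, 8.03 and 8.34 CPM in shZfp207 libraries, against 12.7, 10.1 and 9.35 CPM in shNC libraries. The groups did not overlap, yet its log2 fold change of -0.35 did not pass (adjusted p = 0.159 in edgeR). Irf7, the amplifier of interferon production, was low at 1.18 to 1.57 CPM in shZfp207 and 1.17 to 2.19 CPM in shNC libraries, and Irf2 had a log2 fold change of 0.08 (adjusted p = 0.807 in edgeR).

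Of the 8 members listed as sensors or adaptors, 6 were tested and none passed with all libraries (against 20.6% of all genes tested). RIG-I (Ddx58) had 42.1, 47.8 and 47.3 CPM in shZfp207 libraries, against 32.7, 63.3 and 61.5 CPM in shNC libraries, and its adaptor Mavs 78.2, 73.9 and 72.5 CPM against 65.2, 102.7 and 102.6 CPM. In both, shNC replicate 1 lay below all shZfp207 libraries and the other controls above them. Their log2 fold changes were -0.19 and -0.26 (adjusted p = 0.63 and 0.365 in edgeR), and -0.44 and -0.45 without shNC replicate 1 (adjusted p = 0.00315 and 0.000541). MDA5 (Ifih1) had 11.1, 9.69 and 11.7 CPM in shZfp207 libraries, against 5.2, 12 and 9.79 CPM in shNC libraries, and did not pass in either fit (adjusted p = 0.557 in edgeR, and 0.999 without shNC replicate 1). Trim25, a ubiquitin ligase of the RIG-I pathway, had 176.4, 186.3 and 175.1 CPM in shZfp207 libraries, against 46.8, 80.5 and 150.5 CPM in shNC libraries. The controls were spread widely and all lay below the shZfp207 libraries, and its log2 fold change of 0.96 (SE 0.383) did not pass (adjusted p = 0.123 in edgeR). Without shNC replicate 1 it was 0.64 (adjusted p = 0.0462), and without shNC replicate 3 it was 1.502 (adjusted p = 0.0263). Tmem173 and Tbk1 had log2 fold changes of 0.12 and -0.01 and edgeR gave adjusted p of 0.397 and 0.941.

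The enzymes of double-stranded RNA moved in both directions. Of 5 tested among 7 listed, 1 was higher and 2 lower (60%, against 20.6% of all genes tested). Oas1a, which makes a short adenylate messenger when it meets double-stranded RNA (chr5:120896256-120907521), had 15.5, 17.4 and 14.3 CPM in shZfp207 libraries, against 10.5, 11 and 10 CPM in shNC libraries. It rose by 0.59 on the log2 scale (SE 0.129, adjusted p = 0.0228 in edgeR). Eif2ak2, the kinase PKR that halts translation (chr17:78852564-78882573), had 32.6, 33.4 and 34.6 CPM in shZfp207 libraries, against 43.3, 47.8 and 46.8 CPM in shNC libraries. It fell by 0.44 (SE 0.0957, adjusted p = 0.0222 in edgeR). Adar, which edits adenosine to inosine and so keeps the cell's own RNA from the sensors (chr3:89715022-89753446), had 16.1, 16.3 and 17.4 CPM in shZfp207 libraries, against 21.3, 24.7 and 25.4 CPM in shNC libraries. It fell by 0.51 (SE 0.12, adjusted p = 0.0295 in edgeR), and up to 16.8% of its exonic sequence overlaps Chrnb2 on the opposite strand. In these 3 genes the groups did not overlap, as in 44.9% of all genes tested. Their calls were kept without shNC replicate 1 (adjusted p = 0.00626, 0.00122 and 0.00135 in edgeR, in the order given). With any other library left out none was called, with adjusted p of 0.0509 to 0.104 for Oas1a, 0.0677 to 0.102 for Eif2ak2 and 0.0823 to 0.121 for Adar. Oasl1, with 10.1, 7.76 and 7.04 CPM in shZfp207 libraries against 7.71, 22 and 15.1 CPM in shNC libraries, did not pass (log2 fold change -0.84, adjusted p = 0.155 in edgeR), and was -1.15 (adjusted p = 0.00323) without shNC replicate 1. Oasl2 had a log2 fold change of -0.41 (adjusted p = 0.163 in edgeR). Oas3 was too low for the test with all libraries, and without shNC replicate 1 it had one of -1.52 (adjusted p = 0.0156) on 4 to 6 counts in shZfp207 and 15 to 17 in the remaining shNC libraries.

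Of the 4 nucleotide and RNA-degrading enzymes, all tested, Isg20 was lower while Cmpk2 was higher (50% called, against 20.6% of all genes tested). Isg20, an exonuclease that degrades viral RNA (chr7:78913424-78920396), had 13.3, 14.9 and 11.7 CPM in shZfp207 libraries, against 17.4, 28.2 and 29.5 CPM in shNC libraries. Its log2 fold change was -0.91 (SE 0.226, adjusted p = 0.0342 in edgeR), -1.11 without shNC replicate 1 (adjusted p = 0.000277), and with any other library left out the adjusted p was 0.0912 to 0.136. Samhd1, which depletes the nucleotides that viruses copy with, had 84.5, 82.8 and 82.1 CPM in shZfp207 libraries, against 91.9, 107.8 and 114.7 CPM in shNC libraries, and did not pass (-0.32, adjusted p = 0.0788 in edgeR), but did without shNC replicate 1 (-0.41, adjusted p = 0.000597). Rsad2 is the neighbour of Cmpk2 on chromosome 12 (26442753 to 26456452), transcribed from the opposite strand and usually induced with it. It had 13, 20 and 9 counts in shZfp207 libraries, against 5, 20 and 28 counts in shNC libraries, and a log2 fold change of -0.34 (SE 0.546, adjusted p = 0.692 in edgeR). The difference between the neighbours was not tested.

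Of the 5 members for protein modification by ISG15 or ADP-ribose, all tested, none was called with all libraries or without shNC replicate 1. Among all genes tested, 20.6% and 52.1% passed in these fits. Usp18, which removes ISG15 and restrains the interferon receptor, had 77.7, 76.1 and 75.3 CPM in shZfp207 libraries, against 84.3, 70.5 and 82.1 CPM in shNC libraries (log2 fold change -0.03, SE 0.096, adjusted p = 0.826 in edgeR). The groups overlapped. Isg15 had a log2 fold change of -0.24 (SE 0.382, adjusted p = 0.688 in edgeR) on 9 to 23 counts in shZfp207 and 16 to 21 in shNC libraries. Parp9 and Dtx3l, which encode partners in one complex and share exonic sequence on opposite strands (9.4% of Parp9 and 8% of Dtx3l), had log2 fold changes of -0.30 and -0.26, and the ADP-ribosyltransferase gene Parp14 had one of 0.05 (adjusted p = 0.226, 0.234 and 0.91 in edgeR).

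Mx1 was the only antiviral effector called of 6 tested (16.7%, against 20.6% of all genes tested). It encodes a GTPase against influenza virus whose allele is defective in many laboratory mouse strains (chr16:97447035-97462907). It had 2.89, 2.45 and 2.87 CPM in shZfp207 libraries, from 44, 37 and 42 counts, against 1.34, 0.891 and 0.862 CPM in shNC libraries, from 16, 13 and 14 counts. All shZfp207 libraries were above all controls, and the log2 fold change was 1.43 (SE 0.279, adjusted p = 0.0162 in edgeR). It was 1.64 (adjusted p = 0.00177) without shNC replicate 1, and with any other library left out the adjusted p was 0.0539 to 0.0854. Ifit2, a translation inhibitor, had 10.1 to 11.7 CPM in shZfp207 and 10.1 to 13.2 CPM in shNC libraries (log2 fold change -0.13, adjusted p = 0.584 in edgeR). The guanylate-binding protein genes Gbp2, Gbp3 and Gbp7 and the apoptosis factor gene Xaf1 had log2 fold changes of 0.25 to 0.49 and edgeR gave adjusted p of 0.373 to 0.684, on 12 to 115 counts per library.

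Of the 4 membrane restriction factors, 3 were tested and 2 of these were called, both lower (66.7%, against 20.6% of all genes tested called in either direction). Besides Bst2 this was Ifitm2 (chr7:140954839-140955961), with 158.2, 159.2 and 149.5 CPM in shZfp207 libraries, against 218.2, 249.8 and 234.5 CPM in shNC libraries. Its log2 fold change was -0.58 (SE 0.0925, adjusted p = 0.00927 in edgeR), and the call was lost without any 1 shZfp207 replicate (adjusted p 0.0541 to 0.0661). Up to 40.9% of its exonic sequence overlaps a predicted gene on its own strand. Its reads could also fall on near copies of the gene. Ifitm3 had 128.2, 133.7 and 140.1 CPM in shZfp207 libraries, against 113.5, 184.1 and 176.1 CPM in shNC libraries. ShNC replicate 1 was below all shZfp207 libraries, and the log2 fold change of -0.23 did not pass (adjusted p = 0.439 in edgeR), but was -0.42 (adjusted p = 0.000762) without that library.

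The rest of the pathway was read from further lists chosen by role, with earlier results of these data known. Of 18 genes of JAK-STAT signalling and its inhibitors, all tested, 1 was higher and 1 lower (11.1%, against 20.6% of all genes tested). Ptpn11, the phosphatase SHP2, had a log2 fold change of 0.74 (SE 0.117, adjusted p = 0.00902 in edgeR), and Ube2l6, the conjugating enzyme for ISG15, one of -0.85 (SE 0.21, adjusted p = 0.0338 in edgeR). Of 16 tested genes of DNA sensing and clearance, of 18 listed, 1 was higher and 2 lower (18.8%, also below the share of all genes). Tbkbp1, a TBK1-binding protein gene, rose by 0.78, while Mnda and Ifi204, genes of the interferon-inducible p200 family, fell by 0.60 and 0.52 on the log2 scale (adjusted p = 0.00815, 0.00999 and 0.0172 in edgeR). The DNA sensor cGAS (Mb21d1), named after its values were seen, had 1 count in shZfp207 replicate 1, 1 count in shNC replicate 1 and 0 elsewhere.

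Among RNA sensing and Toll-like receptor genes, 1 of 16 tested was higher and 2 lower, of 19 listed (18.8%, against 20.6% of all genes tested). Prkra, which encodes the PKR activator PACT, fell by 0.98 (SE 0.115, adjusted p = 0.00432 in edgeR) and Traf6 rose by 0.42 on the log2 scale (adjusted p = 0.0333 in edgeR). The genes Tlr7, Tlr8 and Tlr9 had 0 counts in all 6 libraries. Of 42 tested among 59 gene records of other interferon-induced genes, 6 were higher and 3 lower (21.4%, against 20.6% of all genes tested). Oas1c rose by 1.92 and Lgals3bp, which encodes a secreted galectin-binding glycoprotein, by 0.67, while Mlkl, the effector of necroptosis, fell by 0.72 and Slfn2, a Schlafen family gene with 10 counts over the shZfp207 and 73 over the shNC libraries, by 2.9 on the log2 scale (adjusted p = 0.00397, 0.00643, 0.00537 and 0.00617 in edgeR). The median log2 fold changes of these 4 lists were 0.12, -0.21, -0.10 and 0.08, against -0.03 over all genes tested. Without shNC replicate 1, JAK-STAT signalling had 4 genes higher and 3 lower of 18 (38.9%), DNA sensing 2 and 3 of 16 (31.2%), RNA sensing 5 and 5 of 16 (62.5%) and the other interferon-induced genes 9 and 8 of 44 (38.6%), where 52.1% of all genes passed. Their medians there were 0.14, -0.03, -0.10 and 0.02. Of the genes named from them, Tbkbp1, Prkra, Oas1c, Lgals3bp, Mlkl and Slfn2 were called whichever library was left out. Of the 6 fits with a library left out, Ptpn11 and Mnda were called in 3 and Ube2l6 in 2. Ifi204 and Traf6 were called in 1, that without shNC replicate 1. Adjusted p of these 5 genes reached up to 0.139 in edgeR.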

How the data were processed

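RNA of Hepa1-6 cells was sequenced in 6 libraries, 3 titled shZfp207 and 3 titled shNC. The authors deposited whole-number read counts per gene and FPKM values for the same 34718 genes, per the file headers. Tools listed per the submitters' processing notes are featureCounts 1.5.0-p3 and HISAT2 2.0.5, with mm10 as the build. Neither the annotation nor the treatment of strand in counting is stated there or in the labels. Reads of genes that overlap on opposite strands may be mixed. For 8801 well-counted genes, deposited counts and FPKM implied one gene length across libraries, to within 0.0116%.

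Genes were filtered with filterByExpr (11975 kept), scaled by TMM and tested with edgeR 4.0.16 (R 4.3.3) by the quasi-likelihood test with group as the only term. Two-sided p-values had Benjamini-Hochberg adjustment across the genes tested, with 0.05 as the threshold. SE is the log2 fold change divided by the square root of F. CPM per library are per 1000000 counts of that library, means ± SD are TMM-scaled CPM, and FPKM are the authors' values. The procedure was tested on simulated data, where it recovered 16.4% of 1.5-fold, 67.2% of 2-fold and 95.45% of 4-fold changes. Of the calls there, 4.8% were false. Most changes of 1.5-fold were thus missed in the simulation. Exonic overlaps come from GENCODE M21, with overlapping stretches merged, and promoters from RefSeq (GRCm38.p6).

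The members, further lists and tests were chosen with earlier results of these data known, so no list was tested as a whole. All members may be named, with values in every library for those past the threshold. From each further list up to 4 genes past the threshold with the smallest p are named, or the 2 most abundant where none passes, and others are marked. Some genes that the rule names are not reported here. Marker genes were named as checks and lie outside that rule. The alternatives changed the scaling (RLE or upper quartile), the filter (1 count in all, or 1 CPM in 3 libraries) or the tool (DESeq2 1.42.0; limma 3.58.1 (voom with sample weights, and log2(FPKM + 1))), added a replicate block, or left out each library.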

Additional observations from a re-analysis of the deposited data

How the results depend on the processing

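All 14 genes followed (Zfp207 and the 13 called members) kept their direction under all 14 alternatives, 143 of 196 values kept their call and 53 lost it. With RLE or upper-quartile scaling, the filter of 1 CPM, DESeq2, limma on log2(FPKM + 1), limma-voom with sample weights, or without shNC replicate 1, all 14 kept their calls. The count of genes called was 2466, against 6287 with limma-voom and sample weights, where shNC replicate 1 had a weight of 0.0805 and the other libraries 1.33 to 2.37. Members higher and lower then numbered 8 and 14. With each library left out, genes called ran from 534 to 6313, members higher from 1 to 7 and members lower from 1 to 15. The log2 fold change ran from 0.60 to 0.67 for Irf1 and from -0.998 to -0.79 for Bst2. In the fit with the replicate block, 987 genes were called, with 2 members higher and 4 lower. The labels do not say that replicate numbers pair the samples. Deviations of same-numbered libraries correlated at -0.00800, 0.00771 and 0.0527 across genes, and those of differently numbered libraries at -0.0474 to 0.0243. With 3 libraries per group, these values cannot settle whether the samples were paired. Without a filter beyond 1 count, 2 of the 14 genes lost their calls. Depth limits the 8 untested members, all at 17 counts or fewer. The causes of these changes were not tested.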

Other observations

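The genes of this paragraph, members of gene clusters, were chosen after their values were seen. In the Oas cluster on chromosome 5, Oas1c had 6.96, 7.83 and 8.48 CPM in shZfp207 libraries, against 2.6, 1.85 and 1.78 CPM in shNC libraries. Every shZfp207 library was above every control. Of its relatives, Oas1a was higher too (log2 fold change 0.59), Oas1g had a log2 fold change of -0.15 (SE 0.227, adjusted p = 0.675 in edgeR), Oas1b one of 0.82 (SE 0.313, adjusted p = 0.11), and Oas2 had 1 count in all 6 libraries together. Up to 9.44% of the exonic sequence of Oas1c overlaps a predicted gene on the opposite strand. Among immunity-related GTPase genes on chromosome 11, Tgtp1 rose by 1.23 on the log2 scale (SE 0.279, adjusted p = 0.0258 in edgeR), while Tgtp2 had a log2 fold change of 0.17 (SE 0.227, adjusted p = 0.63) and Irgm1 one of -0.36 (SE 0.129, adjusted p = 0.0914). The call of Tgtp1 was kept in 2 of 6 fits with a library left out, with adjusted p of up to 0.104. Reads could be shared between these near copies, and the differences between neighbours were not tested.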
